A study of Mus musculus with 30 samples.

Results

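IFNβ and IFNγ were compared directly with each other in 6694c2 cells, a mouse pancreatic ductal adenocarcinoma line. The comparison rests on 6 of the 30 samples in the series, 3 libraries treated with IFNβ and 3 treated with IFNγ, which were chosen by their treatment labels and by no measured value. All 18070 genes with at least 10 reads over the 12 6694c2 libraries were tested, of 49315 genes counted. The line was derived from a tumor-prone female mouse with p53+/floxed, Pdx-cre, which acts in the pancreatic lineage, and a YFP-floxed reporter, and it is labelled C57BL/6. Cells received IFNβ at 1000 U/mL, IFNγ at 100 ng/mL or vehicle for 24 h in culture, and polyadenylated RNA was sequenced in bulk. Since the doses are in different units and each interferon was given at 1 dose and 1 time, a preference for one interferon holds only at these doses and at 24 h. A further 3 libraries, treated with STING agonist at 225 ug/mL, entered the fit only to estimate the spread. B16F10, a mouse melanoma line, received the same 4 treatments, and its 3 IFNβ and 3 IFNγ libraries were used to ask whether a preference differed between the lines. Nothing states that the 3 libraries of a group came from separate cultures, so p-values measure the spread between libraries, which may be technical.

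Type I interferons such as IFNβ signal through the IFNAR1 and IFNAR2 receptor chains to a complex that contains STAT2 and IRF9 and binds interferon-stimulated response elements (ISREs). IFNγ, the type II interferon, signals through IFNGR1 and IFNGR2 to STAT homodimers, which bind gamma-activated sites (GAS). IRF1, itself a target of interferon signalling, also binds ISRE-like sequences, so the sets of genes that the pathways reach overlap. In tumor cells both interferons are known for raising antigen presentation, antiviral effectors and chemokines.

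The promoters of Ifit1, Rsad2, Irf1, Serpina3g and Gbp2 are shown because these genes lie at the ends of the contrast or are targets that carry the pathways' own motifs. They are RefSeq promoters on GRCm38.p6, from 250 bases before to 50 bases after the start, written on the strand of the gene. Capitals mark an ISRE core (GAAA, any 2 bases, GAAA, on either strand) or a GAS core (TTC, any 3 bases, GAA, which reads the same on both strands). Ifit1 encodes an antiviral RNA-binding protein and its promoter lies at chr19:34640639-34640938 on the + strand. Rsad2 encodes viperin, an antiviral enzyme, and its promoter lies at chr12:26456403-26456702 on the - strand. The promoter of Irf1, which encodes the transcription factor named above, lies at chr11:53769764-53770063 on the + strand and is the first of 2 listed. Serpina3g encodes a serine protease inhibitor, with its promoter at chr12:104235897-104236196 on the + strand. The promoter of Gbp2, which encodes a guanylate-binding protein of cell-autonomous defence, lies at chr3:142620413-142620712 on the + strand.
Ifit1: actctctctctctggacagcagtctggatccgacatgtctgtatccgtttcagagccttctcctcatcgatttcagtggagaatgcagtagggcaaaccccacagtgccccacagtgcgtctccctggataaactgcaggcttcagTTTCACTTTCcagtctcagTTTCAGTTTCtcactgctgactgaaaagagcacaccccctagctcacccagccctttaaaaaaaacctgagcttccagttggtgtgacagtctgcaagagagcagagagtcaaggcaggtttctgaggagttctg
Rsad2: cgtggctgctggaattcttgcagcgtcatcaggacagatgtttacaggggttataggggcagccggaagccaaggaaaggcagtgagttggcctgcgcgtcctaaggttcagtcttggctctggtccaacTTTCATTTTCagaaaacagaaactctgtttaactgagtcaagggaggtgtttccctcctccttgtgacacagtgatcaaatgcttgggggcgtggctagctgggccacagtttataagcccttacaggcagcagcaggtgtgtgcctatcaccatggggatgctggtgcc
Irf1: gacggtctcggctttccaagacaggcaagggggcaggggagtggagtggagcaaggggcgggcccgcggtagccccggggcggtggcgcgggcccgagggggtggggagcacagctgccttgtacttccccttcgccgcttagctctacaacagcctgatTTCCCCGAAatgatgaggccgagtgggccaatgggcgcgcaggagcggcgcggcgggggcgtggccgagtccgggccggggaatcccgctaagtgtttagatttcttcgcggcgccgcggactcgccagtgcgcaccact
Serpina3g: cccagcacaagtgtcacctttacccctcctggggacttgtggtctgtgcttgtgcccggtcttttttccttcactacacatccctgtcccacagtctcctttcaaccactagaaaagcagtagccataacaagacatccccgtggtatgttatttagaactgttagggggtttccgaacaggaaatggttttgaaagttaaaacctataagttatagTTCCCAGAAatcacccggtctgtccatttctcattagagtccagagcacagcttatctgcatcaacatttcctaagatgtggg
Gbp2: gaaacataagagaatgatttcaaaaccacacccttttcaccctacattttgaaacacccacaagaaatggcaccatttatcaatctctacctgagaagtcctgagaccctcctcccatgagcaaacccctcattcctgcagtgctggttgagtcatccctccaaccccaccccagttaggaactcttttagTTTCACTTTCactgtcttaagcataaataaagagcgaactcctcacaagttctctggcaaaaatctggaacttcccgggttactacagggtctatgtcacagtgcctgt
The Ifit1 promoter held 2 ISRE cores, whose first bases lie 104 and 85 bases before the start, and the Rsad2 promoter held 1, at 120 bases before it. The GAS cores lie 90 bases before the start of Irf1 and 33 bases before that of Serpina3g. Gbp2, a gene with higher reads under IFNγ, held an ISRE core 59 bases before its start and no GAS core.

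In the direct contrast, 1511 genes were called higher with IFNβ, 8.36% of those tested, and 1382 were called higher with IFNγ, 7.65% of those tested, at a Benjamini-Hochberg adjusted p under 0.05 in the quasi-likelihood test of edgeR. At an unadjusted p under 0.05 there were 4908. Which direction held more calls depended on the setting, with IFNβ at 52.2% of calls here and at 45.6% when library totals replaced TMM scaling. Of the called genes, 316 were over 2-fold higher with IFNβ (1.75%) and 297 over 2-fold higher with IFNγ (1.64%). The median log2 fold change over all genes tested was 0.0068, and fold changes are given throughout as IFNβ minus IFNγ, so that a negative value is higher with IFNγ. The values of the 3 IFNβ libraries did not overlap those of the 3 IFNγ libraries in 313 of the 316 and 285 of the 297 genes, while 29.1% of all genes tested did not overlap. Values are given below as CPM, counts scaled to a library of 1e+06 reads. Library totals were 23771255 to 32266795 reads with IFNβ, 17486635 to 31844655 with IFNγ and 17450954 to 19224703 with vehicle.

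**Figure D1:**
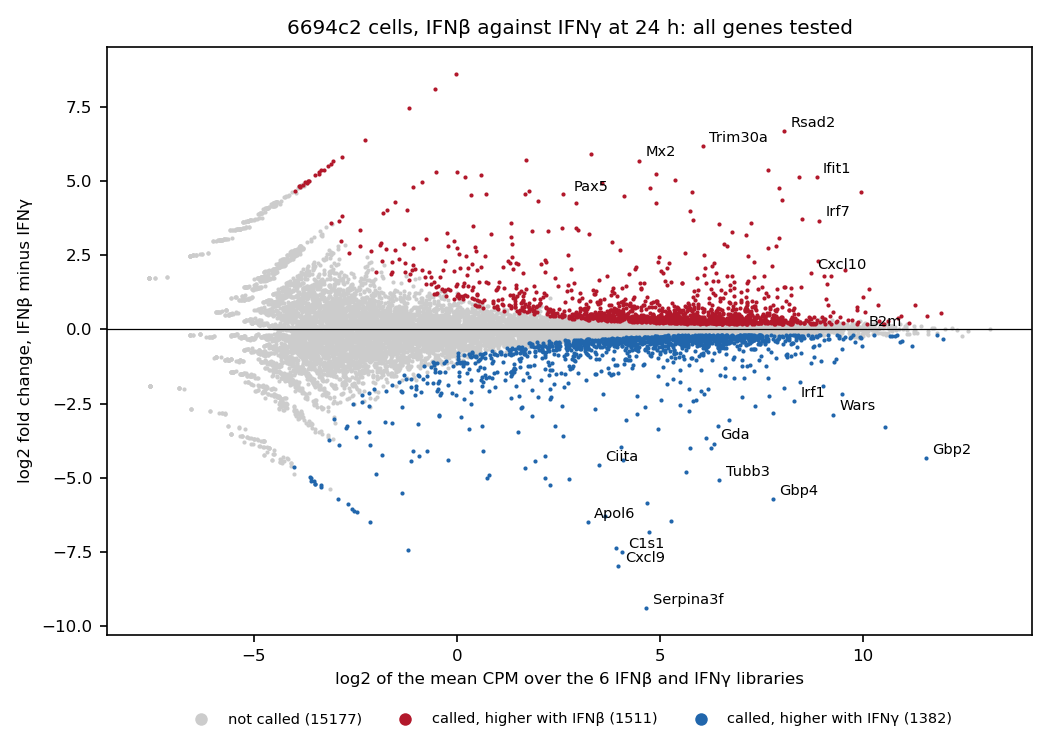
Each point is 1 gene. The horizontal axis gives the log2 of the mean CPM over the 6 libraries and the vertical axis the log2 fold change, IFNβ minus IFNγ. Red points are the 1511 genes called higher with IFNβ, blue points the 1382 called higher with IFNγ and grey points were not called. Rsad2 and Trim30a lie near the top, and Serpina3f and Cxcl9 near the bottom.

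Smallest p-values in the direction of IFNβ went to Ifit1, Trim30a, Ifi44, Ifit3b, Cmpk2, Slfn8, Sp100, Oas1a, Usp18, Tor3a, Oasl1 and Irf7. Many of these are listed as antiviral genes, while Usp18 is a feedback inhibitor and Irf7 a transcription factor. Ifit1 (ENSMUSG00000034459, chr19:34640871-34650009, + strand, GRCm38) read 879, 949 and 902 CPM with IFNβ and 26.8, 25.0 and 26.3 CPM with IFNγ, against 2.32, 1.91 and 2.04 CPM with vehicle. Its log2 fold change was 5.13 (SE 0.08, edgeR adjusted p 9.28e-23). Both interferons raised Ifit1 over vehicle, and the 3 IFNβ libraries stood far above the 3 IFNγ libraries. Trim30a, a TRIM protein gene known as a regulator of innate signalling, read 137, 131 and 128 CPM with IFNβ and 1.62, 2.22 and 1.69 CPM with IFNγ. With vehicle it read 0.702, 1.13 and 0.905 CPM, and it was called higher with IFNγ than with vehicle, by a small amount (log2 0.98, edgeR adjusted p 3.15e-03). The log2 fold change of Trim30a was 6.18 (SE 0.12, edgeR adjusted p 4.06e-21). Irf7, the transcription factor that amplifies type I interferon responses, read 876, 879 and 973 CPM with IFNβ and 74.7, 66.3 and 74.6 CPM with IFNγ. Vehicle libraries held 1.35, 0.721 and 0.566 CPM of Irf7. Here too the groups were far apart, with a log2 fold change of 3.66 (SE 0.09, edgeR adjusted p 1.44e-19).

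Rsad2 had the largest fold change in this direction among called genes with a mean of at least 10 CPM in the higher group. It read 541, 539 and 513 CPM with IFNβ, 6.72, 6.67 and 2.99 CPM with IFNγ and 3.45, 2.83 and 4.75 CPM with vehicle. The IFNγ libraries overlapped the vehicle libraries, and the change against vehicle was not called (log2 0.50, edgeR adjusted p 0.175), although it was called without IFNγ replicate 3 (log2 0.87). Replicate 3 also had the lowest sum of melanocyte markers, which B16F10 cells express, at 37.3 CPM against 85.9 and 131 CPM. The part of such reads in this call was not tested. Between the interferons the log2 fold change of Rsad2 was 6.68 (SE 0.17, edgeR adjusted p 3.24e-19). Mx1 and Mx2, genes of a family known for dynamin-like antiviral GTPases, were among the next. The annotation lists Mx2 as a polymorphic pseudogene, and whether either gene makes a working protein was not measured. Mx2 read 49.6, 42.7 and 41.3 CPM with IFNβ and 0.677, 0.855 and 0.987 CPM with IFNγ, and Mx1 read 63.5, 60.6 and 51.1 CPM against 1.62, 0.969 and 1.91 CPM. Their log2 fold changes were 5.68 and 5.21. Trim30d, Trim30a's neighbour in sequence, reached 5.89. Copies as alike as Trim30a and Trim30d, Ifit3 and Ifit3b, Slfn8 and Slfn9, the Oas1 and Serpina3 genes, Gbp4 and its relatives, Tgtp1 and Tgtp2, Apol9a and Apol9b, and the classical and Q and T region H2 genes may share reads, so their single values are uncertain.

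In the direction of IFNγ the smallest p-values belonged to Gbp4, Gda, Tubb3, Aldh1a3, Gbp10, Wars, Batf2, Crisp1, Serpina3g, Serpina3f, C1s1 and Fst. Gbp4 (chr5:105115767-105139586, - strand) read 421, 446 and 429 CPM with IFNγ and 7.38, 9.18 and 8.40 CPM with IFNβ, against 3.29, 2.58 and 1.53 CPM with vehicle. Its log2 fold change was -5.71 (SE 0.12, edgeR adjusted p 1.26e-20). Wars, the tryptophanyl-tRNA synthetase, read 1141, 1072 and 1052 CPM with IFNγ, 145, 146 and 155 CPM with IFNβ and 129, 126 and 127 CPM with vehicle. For Wars the IFNβ libraries lay only a little above vehicle and the difference between the interferons was -2.87 (SE 0.06, edgeR adjusted p 2.75e-20). Tubb3, a beta-tubulin best known from neurons, read 176, 158 and 182 CPM with IFNγ, 4.58, 6.09 and 4.88 CPM with IFNβ and 6.37, 4.79 and 4.92 CPM with vehicle. Its IFNβ libraries overlapped vehicle, and the log2 fold change was -5.07 (SE 0.11). Crisp1, best known as a secreted protein of the epididymis, gave the same picture at 105, 94.8 and 89.6 CPM with IFNγ against 2.89, 3.52 and 3.94 CPM with IFNβ (log2 -4.81).

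The largest fold changes in this direction were in genes that IFNβ left at almost no reads. Serpina3f read 51.2, 51.6 and 50.4 CPM with IFNγ and 0.0628, 0.0858 and 0.0697 CPM with IFNβ, with vehicle at 0.162, 0.309 and 0.0566 CPM. The log2 fold change was -9.38 (SE 0.23, edgeR adjusted p 1.50e-19). Cxcl9, a ligand of the T-cell chemokine receptor CXCR3, read 34.9, 31.5 and 28.3 CPM with IFNγ and 0.126, 0.129 and 0.105 CPM with IFNβ. Vehicle libraries held 0.270, 0.103 and 0.113 CPM of Cxcl9, which overlapped those with IFNβ, and the log2 fold change was -7.99 (SE 0.23, edgeR adjusted p 1.92e-18). C1s1, a complement protease gene, read 30.7, 33.8 and 35.5 CPM with IFNγ and 0.188, 0.172 and 0.174 CPM with IFNβ (log2 -7.50, SE 0.20). Ubd, which encodes the ubiquitin-like protein FAT10, Serpina3g and Apol6 completed the set at -7.36, -6.84 and -6.49. In Ubd, Serpina3g and Apol6 as well, every IFNγ library lay above every IFNβ library, which the rule for naming these genes required.

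**Figure D2:**
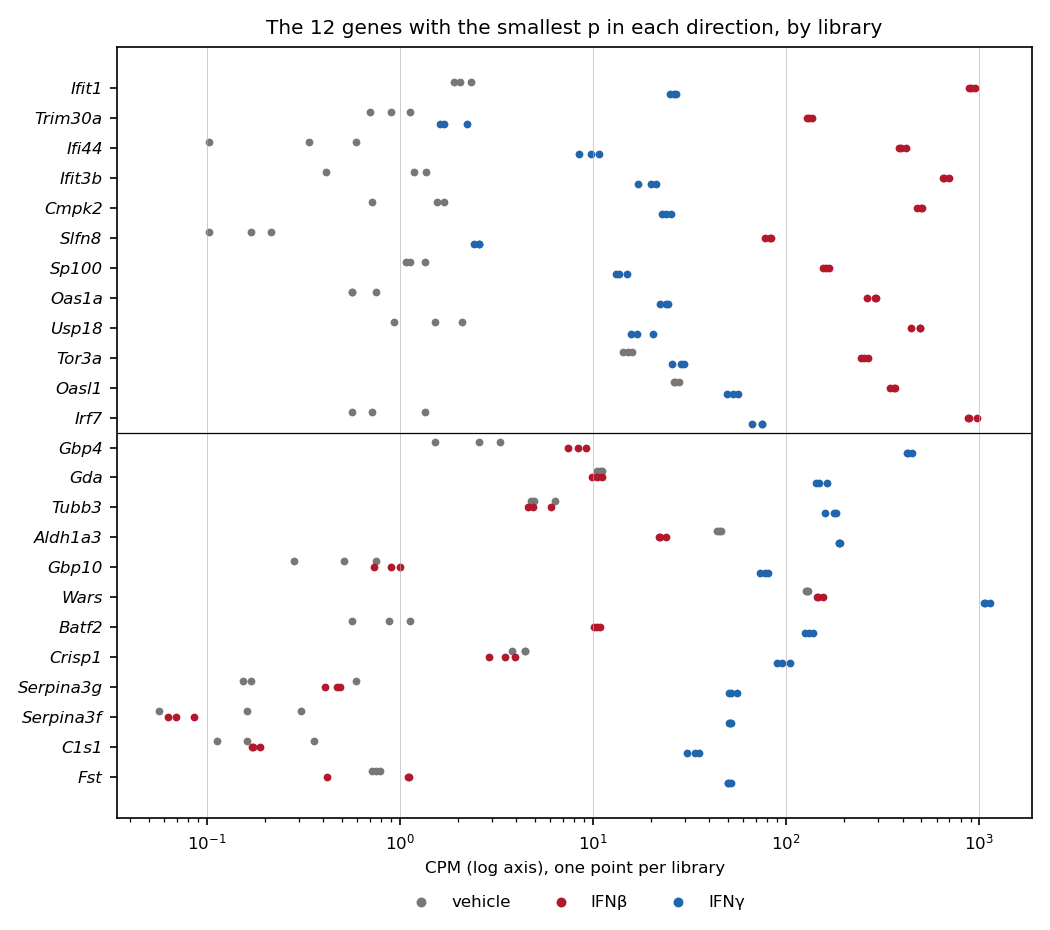
CPM on a log axis for the 12 genes of smallest p on either side of the contrast, 1 point per library, with vehicle in grey, IFNβ in red and IFNγ in blue. In each of the 24 genes the 3 IFNβ points and the 3 IFNγ points do not overlap, which the rule that chose them required. For Trim30a the IFNγ points lie a little above vehicle, and for Tubb3, Serpina3f and C1s1 the IFNβ points overlap vehicle.

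Among the receptors and the JAK-STAT genes, 3 of 11 were called higher with IFNβ and 3 higher with IFNγ, with a median of 0.09. Stat2, which enters the ISRE-binding complex, read 89.1, 82.9 and 79.0 CPM with IFNβ and 36, 41.6 and 36.5 CPM with IFNγ, a log2 fold change of 1.14. Its partner Irf9 read 98.0, 90.8 and 98.5 CPM against 50.3, 51.7 and 54.1 CPM, a log2 fold change of 0.88. The order was the opposite for Stat3, at 88.4, 86.2 and 78.0 CPM with IFNβ and 193, 197 and 206 CPM with IFNγ (-1.24). The receptor chain gene Ifnar2 was called higher with IFNγ (-0.60) and Ifngr2 higher with IFNβ (0.26), a call that was lost without IFNγ replicate 2 (0.22) or IFNβ replicate 3 (0.18). Ifnar1 was not called, with a 95% interval of -0.27 to 0.02 for its log2 fold change.

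Of the 8 feedback inhibitors, 2 were called higher with IFNβ and 4 higher with IFNγ, with a median of -0.36. The call of Socs2, higher with IFNβ at 0.67, was lost without IFNγ replicate 1 (0.56), IFNγ replicate 2 (0.68) or IFNβ replicate 3 (0.51). Usp18, which restrains IFNAR signalling, read 441, 494 and 495 CPM with IFNβ and 20.3, 15.7 and 16.8 CPM with IFNγ, a log2 fold change of 4.76 (SE 0.10, edgeR adjusted p 1.34e-20). Socs1, which restrains JAK kinases, read 10.7, 16.7 and 12.4 CPM with IFNβ and 76.7, 72.6 and 83.0 CPM with IFNγ (-2.56). Each interferon thus had a feedback gene that read several-fold higher under it. Among the 9 interferon regulatory factors, 3 were called in each direction, with a median of -0.15. Irf1 (chr11:53770014-53778374, + strand) read 94.9, 104 and 100 CPM with IFNβ, 555, 520 and 532 CPM with IFNγ and 22.2, 20.4 and 18.9 CPM with vehicle. Its log2 fold change was -2.42 (SE 0.07, edgeR adjusted p 1.76e-18). Irf8, a factor better known from myeloid cells, read 1.92, 2.27 and 1.85 CPM with IFNβ and 28.4, 30.6 and 33.7 CPM with IFNγ (-3.95). Irf2 was higher with IFNγ (-0.46), and Irf7 and Irf9 were higher with IFNβ, as given above. Irf5, the other factor called higher with IFNβ (1.46), rested on few reads and lost its call without IFNγ replicate 3 (0.99), IFNβ replicate 2 (1.33) or IFNβ replicate 3 (1.25).

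The antiviral effectors and RNA sensors leaned to IFNβ, with 32 of 39 tested called higher with it, 2 called higher with IFNγ and a median log2 fold change of 2.14. Their reads made up 1.162%, 1.162% and 1.182% of all reads in the IFNβ libraries and 0.3094%, 0.3108% and 0.3045% in the IFNγ libraries, against 0.0475% to 0.0483% in vehicle. The list was thus well above vehicle under both interferons. Isg15, the ubiquitin-like modifier, read 634, 670 and 725 CPM with IFNβ and 55.2, 46.5 and 54.0 CPM with IFNγ (3.70). The RNA sensor gene Ifih1, which encodes MDA5, read 84.3, 86.3 and 83.8 CPM against 14.1, 14.4 and 14.1 CPM (2.58), and Ddx58, which encodes RIG-I, reached 2.14. Bst2, which encodes the virus-tethering protein tetherin, read 755, 741 and 879 CPM with IFNβ and 169, 143 and 172 CPM with IFNγ (2.29). The exceptions were Samhd1, which encodes a dNTPase that restricts viruses, and Ifi27. Samhd1 read 293, 318 and 297 CPM with IFNβ and 584, 598 and 568 CPM with IFNγ (-0.95, edgeR adjusted p 1.33e-11), and Ifi27 was at -0.82. Parp9, Parp14, Dtx3l, Ifitm1 and Ifitm2 were not called, while Ifitm3 was higher with IFNβ at 3.07.

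All 9 genes of the oligoadenylate synthetase list, named for enzymes that make the 2-5A signal for RNA decay, were called higher with IFNβ, with a median of 2.75. Oas1a read 262, 288 and 291 CPM with IFNβ and 22.1, 24.3 and 23.7 CPM with IFNγ (3.58, SE 0.08). Oas2 reached 3.68 and Oas3 1.75. Of the 12 tested AIM2-like and DNA-sensing genes, 9 were called higher with IFNβ and 1 higher with IFNγ, with a median of 2.15. Ifi204, a DNA-binding relative of human IFI16, was at 2.82 and Ifi205 at 2.52. The gene higher with IFNγ was Tmem173, which encodes STING, with means of 2.58 CPM with IFNβ and 6.49 CPM with IFNγ (-1.33). Aim2 and Tbk1 were not called.

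The 14 tested Schlafen and apolipoprotein L genes were all called, 10 higher with IFNβ and 4 higher with IFNγ, with a median of 1.15, and the families parted. Every one of the 8 Schlafen genes was called higher with IFNβ. Slfn5 read 12.2, 11.4 and 11.9 CPM with IFNβ and 0.469, 0.285 and 0.637 CPM with IFNγ (4.56), and Slfn8 reached 5.02. Slfn4 had 166 reads over the 3 IFNβ libraries and 0 over the 3 IFNγ libraries, which is at least 44.3-fold higher against a floor of 3 reads over the group. Of the apolipoprotein L genes, Apol6, Apol7a, Apol10a and Apol10b were called higher with IFNγ and Apol9a and Apol9b higher with IFNβ. Apol6 was at -6.49 and Apol10b at -4.40, whereas Apol9a was at 0.65. Apol10a rested on 0 reads with IFNβ against 13 with IFNγ, at least 5.41-fold lower with IFNβ against the same floor.

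The GTPase families of cell-autonomous defence leaned the other way. Of the 11 guanylate-binding protein genes, 10 were called higher with IFNγ and none higher with IFNβ, with a median of -3.60, and Gbp2b was not called. Gbp2 read 276, 291 and 287 CPM with IFNβ, 5960, 5675 and 5719 CPM with IFNγ and 33.5, 31.5 and 22.1 CPM with vehicle (-4.35). The list took 0.7786%, 0.7604% and 0.7433% of all reads with IFNγ and 0.07735%, 0.07825% and 0.07632% with IFNβ. Gbp9 and Gbp3 had the smallest called differences, at -0.85 and -1.06. All 8 tested immunity-related GTPase genes were called higher with IFNγ, with a median of -1.72. Iigp1 read 282, 270 and 289 CPM with IFNβ and 2783, 2707 and 2651 CPM with IFNγ (-3.27). Irgm1, a regulator of the family, read 547, 552 and 585 CPM against 942, 875 and 856 CPM, the smallest difference of the list at -0.67.

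**Figure D3:**
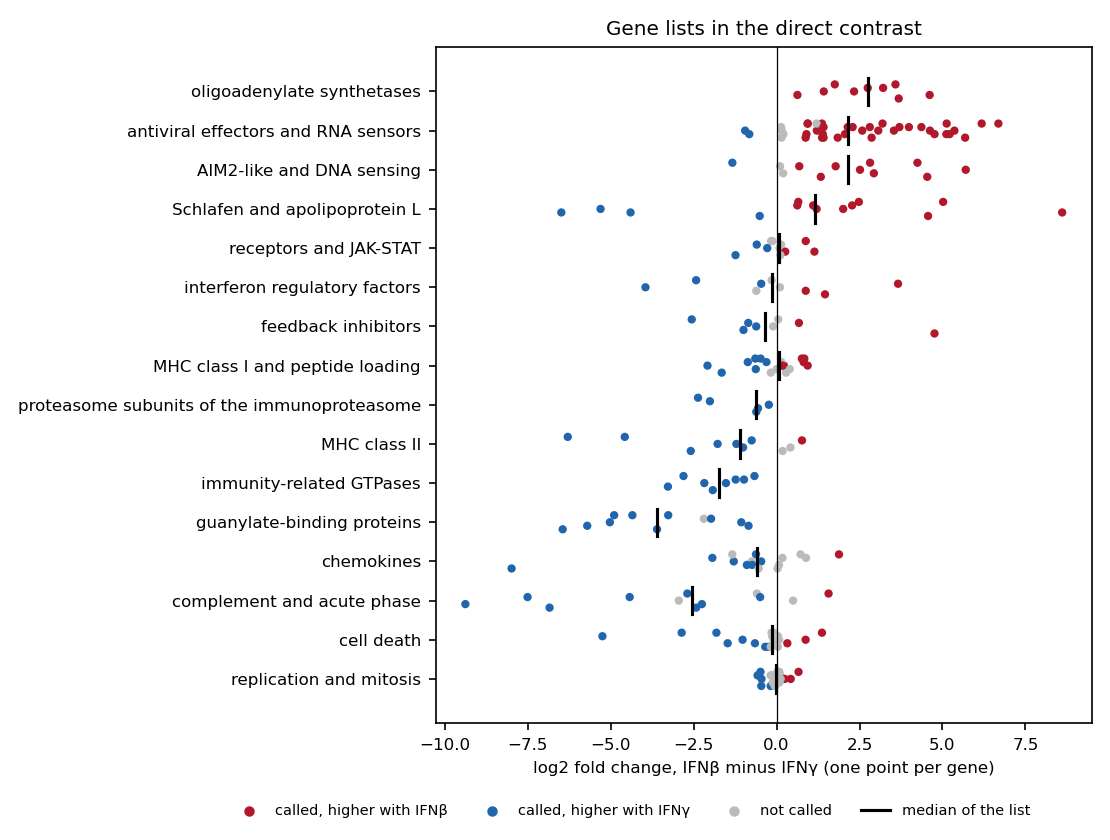
Log2 fold change, IFNβ minus IFNγ, with 1 point per gene in the gene lists named on the left axis and a black bar at the list's median. Red and blue points were called higher with IFNβ and with IFNγ, and grey points were not called. The oligoadenylate synthetases (median 2.75) lie wholly to the right of 0 and the guanylate-binding proteins (-3.60) and immunity-related GTPases (-1.72) to its left.

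MHC class I genes split within the pathway. Of 18 genes for class I molecules and peptide loading, 6 were called higher with IFNβ and 7 higher with IFNγ, and the median was 0.07. Of those higher with IFNβ, H2-Q4 and Calr were among the calls lost most often under other settings. The classical heavy chain genes H2-K1 and H2-D1 were higher with IFNβ. H2-K1 read 1131, 1067 and 1338 CPM with IFNβ and 723, 637 and 725 CPM with IFNγ (0.76, SE 0.08, edgeR adjusted p 5.28e-08), and H2-D1 read 1627, 1590 and 1864 CPM against 983, 897 and 1009 CPM (0.81, SE 0.07, edgeR adjusted p 2.10e-09). The light chain gene B2m was not called, at 963, 783 and 1138 CPM with IFNβ and 1226, 1016 and 1010 CPM with IFNγ. Its log2 fold change of -0.17 had a 95% interval of -0.37 to 0.03, and without IFNβ replicate 3 the difference was called (-0.31). The chaperone gene Tapbp, which encodes tapasin, was also not called (0.00, 95% interval -0.14 to 0.15).

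The 7 genes of the class I list called higher with IFNγ were Tap1, Tap2, Tapbpl, Nlrc5, Erap1 and the non-classical heavy chain genes H2-M3 and H2-T23. Tap1, a peptide transporter subunit, read 183, 209 and 199 CPM with IFNβ and 354, 352 and 371 CPM with IFNγ (-0.87), and its partner Tap2 read 22.7, 26.3 and 25.9 CPM against 105, 101 and 111 CPM (-2.08). Tapbpl, a tapasin relative, was at -1.65, Nlrc5, the class I transactivator, at -0.64 and Erap1, a peptide-trimming enzyme, at -0.48. H2-M3 was at -0.63 and H2-T23 at -0.31, while the T region genes H2-T22 and H2-T24 were higher with IFNβ at 0.84 and 0.94. All 5 immunoproteasome genes were called higher with IFNγ, with a median of -0.61. Psmb8 read 17, 22 and 19.6 CPM with IFNβ and 103, 96.5 and 102 CPM with IFNγ (-2.37), and Psmb9 was at -2.01. Psmb10 had the smallest difference (-0.23), and its call was lost without IFNγ replicate 3 (-0.15) or IFNβ replicate 1 (-0.19). Reads of the class I list as a whole were 0.7528%, 0.7352% and 0.8143% of the total with IFNβ and 0.6999%, 0.6644% and 0.6825% with IFNγ, so that the groups lay close together without overlapping.

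MHC class II genes were mostly higher with IFNγ, at low levels. Of 10 genes, 7 were called higher with IFNγ and 1, H2-DMb2, higher with IFNβ, with a median of -1.11. Ciita, the class II transactivator, read 0.816, 0.987 and 0.941 CPM with IFNβ, 21.5, 20.5 and 23.1 CPM with IFNγ and 0.864, 0.515 and 1.19 CPM with vehicle (-4.57). The IFNβ libraries overlapped vehicle. H2-DMb1, part of the peptide editor of class II molecules, read 0.251, 0.558 and 0.174 CPM with IFNβ and 26.5, 23.1 and 24.7 CPM with IFNγ (-6.29). Cd74, the invariant chain, read 18.6, 24.8 and 18.7 CPM against 70.9, 66.4 and 74.7 CPM (-1.78). The class II chain genes H2-Ab1 and H2-Aa were at -1.21 and -0.75, and the call of H2-Aa was lost without IFNγ replicate 3 (-0.56). The call of H2-DMb2 (0.77) was lost without IFNγ replicate 2 or 3 or IFNβ replicate 2 or 3 (0.59 to 0.82).

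**Figure D4:**
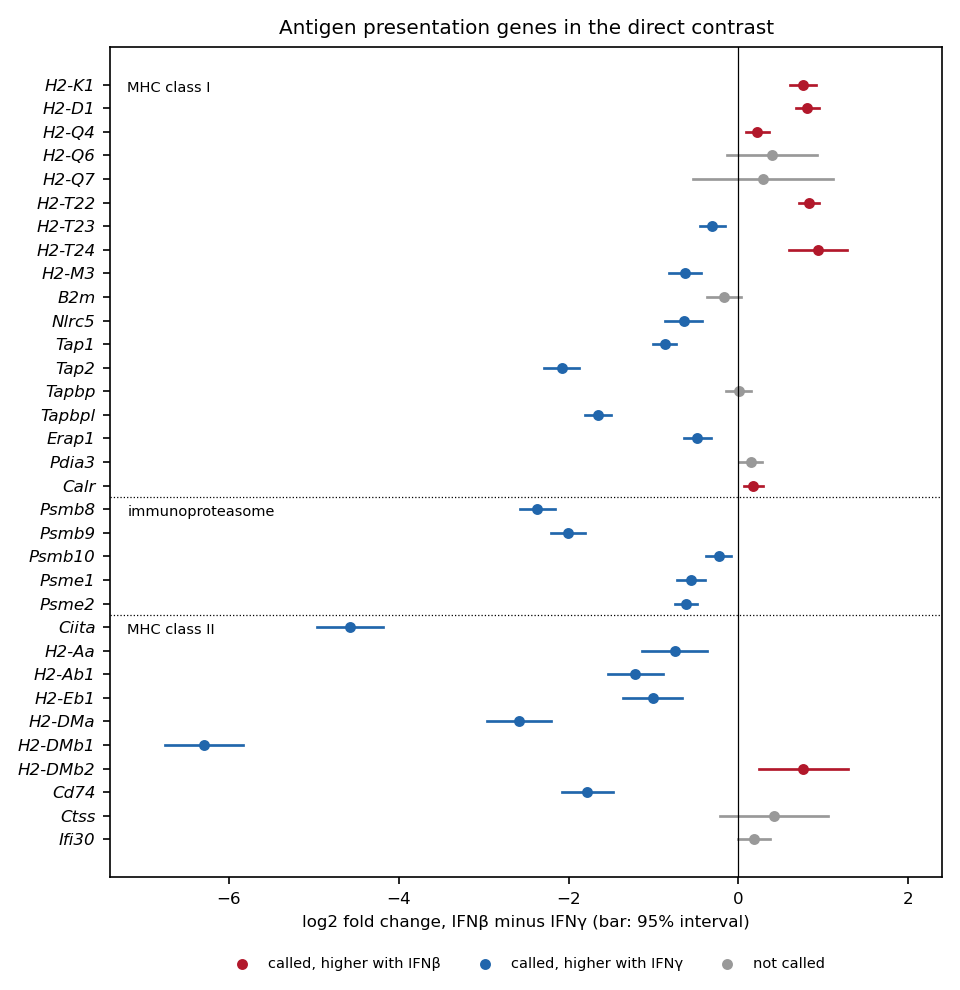
Log2 fold change, IFNβ minus IFNγ, with its 95% interval (bar) for each gene of the MHC class I, immunoproteasome and MHC class II lists. Red, blue and grey mark genes called higher with IFNβ, called higher with IFNγ and not called. H2-K1 and H2-D1 lie to the right of 0 at 0.76 and 0.81, Tap2, Psmb8 and Psmb9 lie near -2, and Ciita and H2-DMb1 lie at -4.57 and -6.29.

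The CXCR3 ligands parted between the interferons. Cxcl10 read 641, 629 and 731 CPM with IFNβ and 200, 168 and 175 CPM with IFNγ, a log2 fold change of 1.88 (SE 0.09, edgeR adjusted p 9.67e-14). Cxcl9 was at -7.99 and Cxcl11 at -1.94, both higher with IFNγ. Cxcl10 was the only 1 of the 16 tested chemokine genes called higher with IFNβ, while 7 were called higher with IFNγ, and the median was -0.58. Cx3cl1, which draws CX3CR1-bearing leukocytes, had means of 56.7 CPM with IFNβ and 138 CPM with IFNγ (-1.29). Among the 15 tested cytokine and cytokine receptor genes, 2 were called higher with IFNβ and 6 higher with IFNγ, with a median of -0.42. The former were Il1rn, the interleukin-1 receptor antagonist (50.5, 55.2 and 55.6 CPM against 15.5, 14.9 and 12.9 CPM, 1.91), and Tnfsf10, which encodes TRAIL (1.33). Il12rb1, a receptor chain for interleukin-12, was at -4.27, Il15ra at -2.34 and Il18bp, an interleukin-18 antagonist, at -1.55.

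Of the 11 tested checkpoint and costimulatory ligands, 2 were called higher with IFNβ and 3 higher with IFNγ, with a median of -0.52. Cd274, which encodes PD-L1, read 20.2, 18.1 and 19.0 CPM with IFNβ and 63.0, 61.1 and 59.2 CPM with IFNγ (-1.68, SE 0.09, edgeR adjusted p 9.04e-13). Icam1, an adhesion ligand for leukocyte integrins, read 24.6, 24.8 and 24.2 CPM against 108, 107 and 118 CPM (-2.18). Lgals9, which encodes galectin-9, went the other way, at 916, 856 and 1017 CPM with IFNβ and 278, 249 and 278 CPM with IFNγ (1.79). Of the 15 metabolic enzymes, 2 were called higher with IFNβ and 6 higher with IFNγ, with a median of -0.87. Gch1, which makes the tetrahydrobiopterin precursor that nitric oxide synthases need, read 123, 120 and 141 CPM with IFNβ, 29.5, 24.5 and 32.8 CPM with IFNγ and 25.2, 26.1 and 26.6 CPM with vehicle (2.13). Ido1, the tryptophan-degrading enzyme, read 0.157, 0.129 and 0.418 CPM with IFNβ and 6.2, 5.7 and 6.81 CPM with IFNγ (-4.69). Nos2 was at very low counts in both groups, with 3 reads over the IFNβ libraries and 32 over the IFNγ libraries, and its call was lost without IFNγ replicate 3 or IFNβ replicate 2 or 3, with the replicate block and with libraries thinned to equal depth. That is 13.3-fold after scaling to depth, with a 95% counting interval of 4.17 to 68.0 that covers counting error only.

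Complement and acute-phase genes leaned to IFNγ, with 8 of 12 tested called higher with it, 1 higher with IFNβ and a median of -2.56. C4b read 19.0, 17.6 and 16.9 CPM with IFNβ and 87.7, 101 and 99.0 CPM with IFNγ (-2.42). C1s1 was at -7.50, C1ra at -2.69 and C3 at -2.25. The exception was Cfb, factor B of the alternative pathway, at 117, 86.3 and 114 CPM with IFNβ and 36, 33.8 and 37.3 CPM with IFNγ (1.57). Of 21 cell death genes, 8 were called higher with IFNγ and 3 higher with IFNβ, with a median of -0.13. The death receptor gene Fas read 0.377, 0.129 and 0.209 CPM with IFNβ and 9.17, 9.92 and 9.87 CPM with IFNγ (-5.25). Casp12 was at -2.86 and Casp1 at -1.81, whereas Xaf1 (1.37), Zbp1 (0.88), a nucleic acid sensor of necroptosis, and Mlkl (0.32) were higher with IFNβ. Of 26 tested replication and mitosis genes, 18 were not called, 3 were higher with IFNβ and 5 higher with IFNγ, with a median of -0.0044. The count higher with IFNγ was 3 without IFNγ replicate 1 or 3 or IFNβ replicate 1 or 3, and 8 in DESeq2. Over all genes tested, 8.36% were called higher with IFNβ and 7.65% higher with IFNγ. Myc read 192, 207 and 212 CPM with IFNβ and 126, 122 and 138 CPM with IFNγ (0.66), and Top2a and Mki67 were at -0.57 and -0.48.

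Markers of other cell types were checked in the same libraries. The counts of called markers below stand beside 8.36% of all genes tested called higher with IFNβ and 7.65% higher with IFNγ. A single call in a list this short is not read as a result about the list. Keratins of ductal epithelium, Krt8, Krt18 and Krt19, were abundant in every library, and 2 of the 12 epithelial markers were called higher with IFNβ and 3 higher with IFNγ, with Epcam near 2 CPM. Melanocyte markers, which B16F10 cells express, summed to 39.1, 40.2 and 26.1 CPM in the IFNβ libraries and 85.9, 131 and 37.3 CPM in the IFNγ libraries, against 87.6 to 89.1 CPM in vehicle. These sums are 0.147% to 0.226% (IFNβ) and 0.219% to 0.767% (IFNγ) of the level in B16F10 cells, and 7 of 11 tested melanocyte markers were called higher with IFNγ and 0 higher with IFNβ. Without IFNγ replicate 2, which had the highest sum, 3 of these markers were called higher with IFNγ, and over all genes tested 1148 were called higher with IFNβ and 1069 higher with IFNγ. The B16F10 level of each named gene times 0.767%, the highest of these shares, came to more than 5% of the higher group's CPM in 2 of the 34 named genes, Apol6 (11.2%) and Adamts1 (33.8%), and to at most 3.12% in the others. In the lower group it came to over 20% for 8, Trim30a, Tubb3, C1s1, Rsad2, Trim30d, Mx2, Mx1 and Adamts1. For Tubb3, C1s1 and Adamts1 the lower group is IFNβ, whose highest share was 0.226%, so 0.767% is above any share seen there. For Rsad2 the product was 7.45 CPM against a mean of 5.43 CPM in the IFNγ libraries. The part of such reads in these low values was not tested. Of the B-cell markers Cd79b and Pax5 were called higher with IFNβ and 8 of 10 were not called, but 4 were called without IFNβ replicate 1. Pax5, the B-lineage transcription factor, read 36.4, 28.9 and 34.8 CPM with IFNβ, 2.08, 0.969 and 1.37 CPM with IFNγ and 1.08, 0.979 and 1.64 CPM with vehicle (4.50, SE 0.17, edgeR adjusted p 6.01e-16). The other 9 B-cell markers together summed to 21.4 to 37.3 CPM with IFNβ, 16.7 to 26.5 CPM with IFNγ and 26.2 to 34.3 CPM with vehicle, so that 2 of the 3 IFNγ libraries lay below every vehicle library, and the defining genes Cd79a and Ms4a1 were not called. Only 3 of 10 T-cell markers had enough reads to test, and 1 of them, Lck, was called higher with IFNβ at means of 0.958 and 0.409 CPM, a call lost in 10 of 17 alternatives, among them DESeq2, the replicate block, and the fits without IFNγ replicate 1 or 2 or IFNβ replicate 1 or 3. Of 8 tested myeloid markers 1 was called in each direction, Mrc1 (0.61) and Cd14 (-0.35), and of 7 tested fibroblast markers Acta2 alone was called, higher with IFNγ (-4.09).

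The sets over 2-fold in the direct contrast were then read against vehicle, in comparisons that share libraries with it and with each other, so their overlap is a description. Against vehicle, IFNβ raised 2140 genes (11.8%) and lowered 1675 (9.27%), and IFNγ raised 1627 (9%) and lowered 1175 (6.5%). This balance moved with the scaling, from 56.1% of calls higher to 42.4% for IFNβ (1648 higher and 2236 lower) and from 58.1% to 47.9% for IFNγ (1412 and 1535) when library totals replaced TMM. Among the 316 genes higher with IFNβ, 112 (35.4%) were called higher than vehicle with both interferons, Ifit1 and Irf7 among them. Another 109 (34.5%) were called higher with IFNβ and not called with IFNγ, such as Rsad2, Pax5 and Gch1. The median log2 change of the 316 was 2.28 for IFNβ and 0.22 for IFNγ against vehicle. In 32 genes (10.1%), Il1rn among them, IFNβ was not called and IFNγ was called lower. Vehicle libraries of Il1rn read 45.7, 52.3 and 53.9 CPM, which overlaps the IFNβ libraries given above.

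Among the 297 genes higher with IFNγ, 127 (42.8%) were called higher with IFNγ and not called with IFNβ, such as Tubb3, Crisp1 and Serpina3f. A further 74 (24.9%), Gbp4, Wars and Irf1 among them, were called higher than vehicle with both. The medians against vehicle were 0 for IFNβ and 2.06 for IFNγ. In 13 genes (4.38%) the interferons moved the gene in opposite directions from vehicle. Aldh1a3, a retinoic acid-producing enzyme, read 43.7, 45.1 and 45.9 CPM with vehicle, 22.1, 22 and 23.8 CPM with IFNβ and 187, 190 and 187 CPM with IFNγ. Tgm2, a protein cross-linking enzyme, read 50.8, 49.4 and 53.5 CPM with vehicle, 44.0, 42.2 and 47.3 CPM with IFNβ and 213, 212 and 229 CPM with IFNγ. The drop with IFNβ was thus large for Aldh1a3 and small for Tgm2. In 42 genes (14.1%) IFNβ was called lower and IFNγ was not called. Protein-coding genes made up 81.6% of the 316 and 91.6% of the 297, against 78.1% of all genes tested.

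The promoters of the sets were searched for the motifs shown above. RefSeq promoters were found for 222 of the 316 genes and 197 of the 297. An ISRE core stood in 54 of the 300 promoters of the first set (18%) and 22 of the 241 of the second (9.13%), against 3.17% of the 15090 promoters of genes tested. A GAS core stood in 20 (6.67%) and 38 (15.8%), against 6.95%. In all 32851 promoters of the table, of the same length of 300 bases, the shares were 3.44% and 8.3%. Among the 12 genes of smallest p on either side, 10 higher with IFNβ had a promoter, of which 5 held an ISRE core (Ifit1, Trim30a, Ifit3b, Slfn8 and Oas1a). Of the genes higher with IFNγ, 6 had a promoter, none held an ISRE core and Serpina3g and Serpina3f held a GAS core. These matches are descriptions of the letters and no measurement of binding.

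Whether the preference differed between 6694c2 and B16F10 cells was tested as an interaction over the 24 bulk libraries. The direct contrast in B16F10 cells called 973 genes higher with IFNβ (5.38%) and 1409 higher with IFNγ (7.8%). The interaction was more positive in 6694c2 cells, that is, further to IFNβ, for 1039 genes (5.75%) and more negative for 833 (4.61%). The balance of the directions turned under some alternatives, with 1000 and 1090 genes in DESeq2, 864 and 937 with RLE scaling, and the more negative calls in the majority without B16F10 IFNβ replicate 1 or 3 or with each B16F10 IFNγ library left out in turn. Of the 316 genes, 107 were called in the same direction in B16F10 cells and 16 in the opposite direction, and of the 297, 110 and 17. Their median log2 fold changes were 1.91 and -1.80 in 6694c2 cells, values that the choice of the sets fixed, and 0.42 and -0.41 in B16F10 cells. Over 2-fold in both lines were 52 genes in the direction of IFNβ, 16.5% of the 6694c2 set and 38.2% of the 136 in B16F10 cells. In the direction of IFNγ there were 83, 27.9% of the 6694c2 set and 34.4% of the 241 in B16F10 cells.

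The antiviral genes preferred IFNβ more strongly in 6694c2 cells than in B16F10 cells. In B16F10 cells Ifit1 averaged 929 CPM with IFNβ and 430 CPM with IFNγ, a log2 fold change of 1.11, and the difference between the lines was 4 (SE 0.09, edgeR adjusted p 4.82e-27). Rsad2 averaged 1929 CPM with IFNβ and 934 CPM with IFNγ in B16F10 cells (1.05), and the difference was 5.63 (SE 0.18, edgeR adjusted p 1.27e-22). The IFNγ libraries of Rsad2 thus lay near vehicle in 6694c2 cells and far higher in B16F10 cells. The interaction was more positive in 6694c2 cells for 34 of the 39 antiviral genes and more negative for 0, with a median of 1.79. The same held for 8 of the 9 oligoadenylate synthetase genes, with 0 more negative. Of the 12 AIM2-like and DNA-sensing genes it was more positive for 9 and more negative for 1, Tmem173. Among antigen presentation genes it was more positive for 12 of 18 class I genes and 3 of 5 immunoproteasome genes, and more negative for none of them. For H2-K1 the B16F10 means were 80.3 CPM with IFNβ and 119 CPM with IFNγ, the opposite order from 6694c2 cells, and the interaction was 1.32. Cxcl10 likewise averaged 590 CPM with IFNβ and 871 CPM with IFNγ in B16F10 cells (-0.56), with an interaction of 2.43 (SE 0.12, edgeR adjusted p 1.93e-17).

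Complement genes and some others differed in the opposite sense. The interaction was more negative in 6694c2 cells for 6 of 12 complement and acute-phase genes and more positive for 2. C1s1 averaged 9.04 CPM with IFNβ and 17.4 CPM with IFNγ in B16F10 cells (-0.94), and the difference between the lines was -6.58 (SE 0.24, edgeR adjusted p 6.63e-21). Tubb3 averaged 135 CPM with IFNβ and 398 CPM with IFNγ there (-1.56), with a difference of -3.52 (SE 0.12, edgeR adjusted p 3.61e-22). The guanylate-binding protein genes kept a strong preference for IFNγ in B16F10 cells, with 10 of 11 called higher with it and a median of -3.93, and so did the immunity-related GTPases, with 8 of 8 and a median of -2.77. The size of that preference still differed between the lines. The interaction was more positive in 6694c2 cells, where the preference for IFNγ was then smaller, for 6 of the 8 immunity-related GTPase genes and 4 of the 11 guanylate-binding protein genes, and more negative for 0 and 1, with medians of 1.04 and 0.78. Gbp4, at means of 4.81 CPM with IFNβ and 607 CPM with IFNγ in B16F10 cells, had an interaction of 1.26. No difference between the lines was called for Socs1 (0.05, edgeR adjusted p 0.94), Tap1, Cd274, Ciita, Ubd or Apol6, which does not show that the lines act alike.

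**Figure D5:**
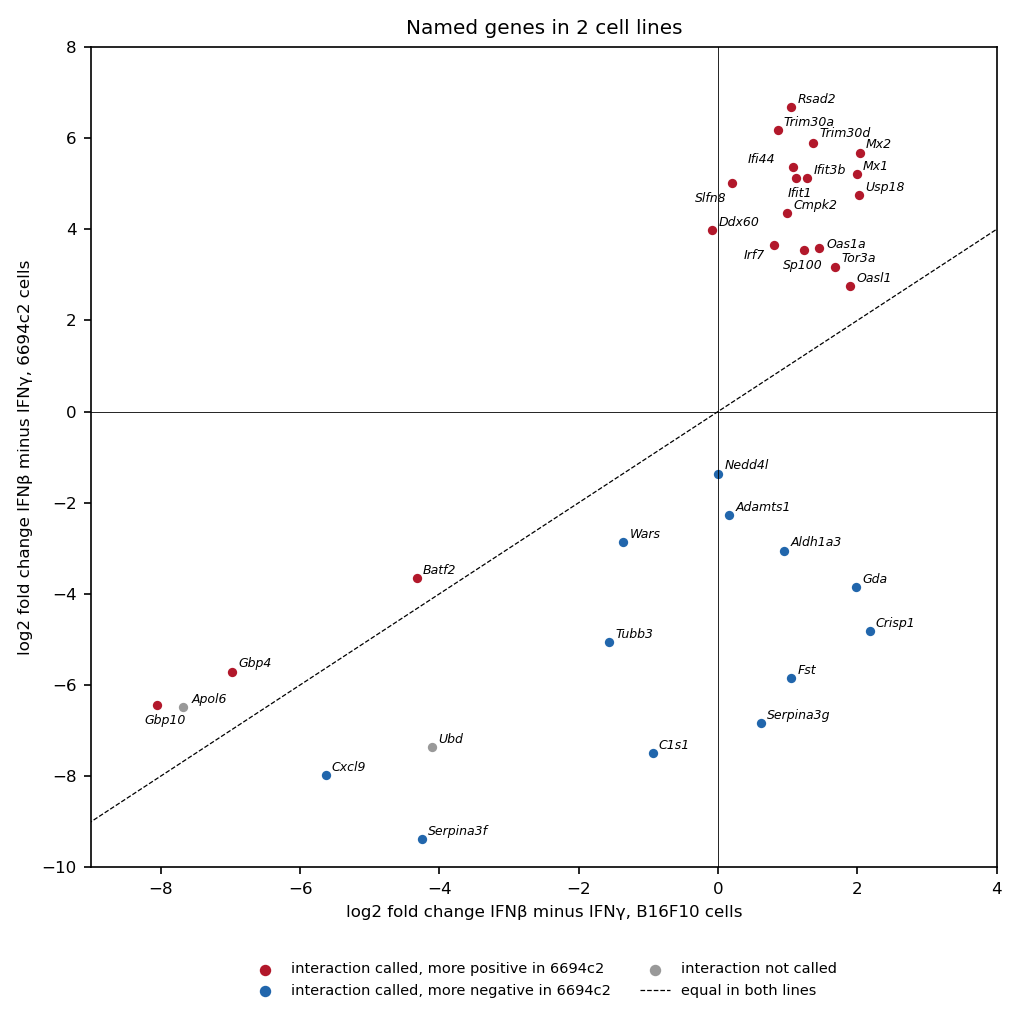
Log2 fold change, IFNβ minus IFNγ, of the named genes in B16F10 cells (horizontal axis) and 6694c2 cells (vertical axis), with a dashed line where both are equal. Red and blue mark genes whose interaction was called more positive or more negative in 6694c2 cells, and grey marks genes not called. Ifit1, Rsad2 and Trim30a lie far above the line, at about 1 in B16F10 cells, and C1s1 and Tubb3 lie below it.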

How the data were processed

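Bulk libraries of 6694c2 and B16F10 cells were analysed from the raw read counts per gene that the authors deposited. According to the study's methods and the labels, paired-end reads were checked with fastqc 0.11.9 and multiQC 1.5, trimmed with cutadapt 1.14, aligned with STAR 2.7.9a and counted with Rsubread. The strand setting of the counting is not given in the sources used here. The labels name mm10, and coordinates are those of the count files.

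Counts were fitted with edgeR 4.0.16 (glmQLFit and glmQLFTest, R 4.3.3), with TMM scaling and group means over the 12 6694c2 libraries, and p-values were adjusted over 18070 genes. The study used DESeq2, which was run here as an alternative (1.42.0). CPM are TMM-scaled, except in the marker sums and in the CPM set beside a share of the B16F10 level, which use library totals. SE is the log2 fold change divided by the root of the F statistic. The interaction was fitted over all 24 bulk libraries. The fits were tested on simulated data, and the outcome is not reported here.

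Groups came from the labels. Genes named are per direction, the 12 of smallest p among called genes over 2-fold with a symbol and no overlap, the 6 of largest fold change with 10 CPM or more in the higher group, the 6 of smallest interaction p, and members of 25 gene lists, each of which is reported. Members and lists were chosen with earlier results of these data known. Replicate numbers were not used to pair libraries. Deviations of the same-numbered IFNβ and IFNγ libraries correlated at -0.197, 0.133 and 0.088, and those of differently numbered ones at -0.323 to 0.271. So few correlations cannot exclude a pairing. Depth of 17450954 reads or more per library limits genes near the floor, where 3 reads over a group count as 0. The single-cell samples and the STING agonist comparison were not analysed here. Some items of the lists are not reported here.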

Additional observations from a re-analysis of the deposited data

Results flagged for a closer look

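The difference between 6694c2 and B16F10 cells in the preference for IFNβ or IFNγ was tested as an interaction, and 1039 genes passed in the direction of IFNβ in 6694c2 cells and 833 in the direction of IFNγ. The 12 genes named for it by their smallest p were flagged because their effects under this contrast differed between the lines. In the direction of IFNβ the interaction was 4 for Ifit1, 5.31 for Trim30a, 3.36 for Cmpk2, 5.63 for Rsad2, 4.81 for Slfn8 and 4.06 for Ddx60. Ddx60, which encodes an RNA helicase, read 106, 110 and 87.5 CPM with IFNβ and 5.47, 7.19 and 6.46 CPM with IFNγ in 6694c2 cells, and averaged 45.3 CPM with IFNβ and 48.1 CPM with IFNγ in B16F10 cells.

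In the direction of IFNγ the interaction was -3.52 for Tubb3, -4.02 for Aldh1a3, -6.58 for C1s1, -1.53 for Wars, -1.38 for Nedd4l and -2.44 for Adamts1. Aldh1a3 averaged 6.51 CPM with IFNβ and 3.40 CPM with IFNγ in B16F10 cells, the opposite order from 6694c2 cells. Nedd4l, a ubiquitin ligase, read 25.7, 24.5 and 26.6 CPM with IFNβ and 62.0, 69.1 and 66.3 CPM with IFNγ in 6694c2 cells and averaged 168 CPM with either in B16F10 cells. Adamts1, a secreted protease, read 1.51, 1.12 and 1.46 CPM with IFNβ and 6.30, 7.19 and 6.65 CPM with IFNγ in 6694c2 cells, while B16F10 cells averaged 315 CPM with IFNβ and 283 CPM with IFNγ. At the highest melanocyte marker share, 0.767%, the B16F10 level of Adamts1 would give 2.64 CPM with IFNβ and 2.26 CPM with IFNγ. That share was seen with IFNγ, and the IFNβ libraries reached only 0.226%. The part of such reads in the Adamts1 result was not tested.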

How the results depend on the processing

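The counts of called genes over all genes tested stayed within 1.5 times their main value under every alternative tried. Across 17 alternatives for the direct contrast, 1148 to 1575 genes were called higher with IFNβ and 1069 to 1676 higher with IFNγ, and 260 to 328 and 233 to 347 of them were over 2-fold. One of these, thinning the libraries to equal depth, was chosen after seeing the data and called 1300 and 1360. Interaction counts were 720 to 1130 and 641 to 1090. Against vehicle they were 1648 to 2266 higher and 1283 to 2236 lower for IFNβ, and 1264 to 1814 and 811 to 1545 for IFNγ. With the replicate number as a block the direct contrast called 1420 and 1332 genes, 291 and 279 of them over 2-fold, and the interaction called 997 and 821. Of 328 results for single genes, 290 kept their call under every alternative run and 0 reversed. Without genes over 10 times higher in B16F10 than in 6694c2 vehicle, 16829 genes were tested, and 1383 were called higher with IFNβ and 1327 higher with IFNγ. Fewer genes of a list were then tested, and 11 antiviral and 5 oligoadenylate synthetase genes were called higher with IFNβ. Genes such as Ifit1, with vehicle means of 53.3 CPM in B16F10 and 2.09 CPM in 6694c2 cells, were left out of the test. These list counts therefore cannot be set against the main counts as lost calls. Calls were lost most often for Lck, Ccnd1, Calr, Socs2, H2-Q4 and H2-DMb2, and the cause was not tested. Nos2 and Apol10a, with a few reads per library, were limited by depth.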

Other observations

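Some ligands of the EGF receptor family were higher with IFNβ, a pattern noticed after the values were seen and given without a test of the group. Of 11 listed ligand genes 10 were tested, 4 were called higher with IFNβ (Areg, Btc, Ereg and Hbegf) and 5 were not called. The 1 called higher with IFNγ was Tgfa, by a small amount (-0.32). Over all genes tested, 8.36% were called higher with IFNβ and 7.65% higher with IFNγ. Ereg (chr5:91074622-91093646), Areg (chr5:91139599-91148432) and Btc (chr5:91357261-91402994) lie near each other, so they may not be separate cases. Epgn, which was not called, lies in the same region. Areg, which encodes amphiregulin, read 81.8, 95 and 95.7 CPM with vehicle, 119, 114 and 130 CPM with IFNβ and 40.2, 38.2 and 39.7 CPM with IFNγ (log2 1.62, SE 0.07). Btc, which encodes betacellulin, read 87.5, 96.6 and 92.4 CPM, 144, 161 and 151 CPM, and 63.3, 59.6 and 59.7 CPM in the same order (1.32). Ereg, which encodes epiregulin, read 32.5, 28.7 and 31.6 CPM, 56.7, 51.2 and 51.6 CPM, and 18.4, 20.2 and 18.5 CPM (1.48). In all 3 genes the IFNβ libraries lay above vehicle and the IFNγ libraries below it.

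These 3 belong to 17 genes, 5.38% of the 316, that were called higher than vehicle with IFNβ and lower than vehicle with IFNγ. Anxa10, an annexin gene, had the smallest p of them, with 51.9, 55.1 and 58.8 CPM in vehicle, 128, 123 and 149 CPM with IFNβ and 31.6, 25.9 and 26.7 CPM with IFNγ (2.25). F3, which encodes tissue factor, the initiator of coagulation, read 178, 196 and 199 CPM with vehicle, 265, 263 and 272 CPM with IFNβ and 98.1, 101 and 96.7 CPM with IFNγ (1.43). For Anxa10 and F3 the 9 libraries fell into 3 separate ranges by treatment.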
